A study of Mus musculus with 9 samples.

Results

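The Pou5f1 and Sox2 loci are described here in HRS-seq data of mouse embryonic stem cells. The StyI restriction fragments counted were those whose midpoint lay in a window of 150 kb on chromosome 17 (35550001 to 35700000, mm9), which holds Pou5f1 at about 35643000 to 35647700, or in a window of 200 kb on chromosome 3 (34500001 to 34700000), which holds Sox2 at about 34548900 to 34551400 and the interval of its distal enhancer. This gave 471 of 3053721 fragments, 212 at Pou5f1 and 259 at Sox2. The flanks set beside them were 200 kb on either side, with 573 fragments around the Pou5f1 window and 524 around the Sox2 window. Membership rests on position alone and on no count.

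Pou5f1 encodes OCT4, a POU-domain transcription factor that binds the octamer motif, and Sox2 encodes an HMG-box factor that binds beside it on many enhancers of pluripotent cells. Both factors are needed to keep mouse embryonic stem cells undifferentiated, and each gene is among the targets of the pair. In these cells Sox2 depends on a cluster of enhancers far downstream of the gene, which contacts the promoter through a chromatin loop. Pou5f1 lies near class I genes of the major histocompatibility complex. In the RefSeq gene order of GRCm38.p6 the class I genes H2-Q6, H2-Q7 and H2-Q10 precede it, and Tcf19, Cchcr1, Psors1c2 and Cdsn follow it. Sox2 lies within the long noncoding RNA gene Sox2ot.

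All libraries came from E14Tg2a, a feeder-independent line of 129P2 background that was kept on gelatin with serum and LIF. In the assay, nuclei are treated with high salt, the DNA is cut with StyI, and the fragments retained with the insoluble nuclear material (HRS, high-salt recovered sequences) are separated from the released ones (Loop). There were 3 libraries each of HRS, of Loop and of genomic input DNA. The input libraries, titled D0, D12 and D21, are called input replicates 1, 2 and 3. Neither the input titles nor the origin of the replicates (separate cultures or not) is explained in the labels, and the p-values therefore rest on a spread between libraries that may be technical. The cells of all groups are labelled alike, untreated and with no genotype change. The libraries summed to between 39.1 and 52.5 M counts (HRS), 58.7 and 62.9 M (Loop) and 55.2 and 62.2 M (input). Counts in fragments of up to 200 bp made up 28.9 to 32.0% of HRS, 46.8 to 55.6% of Loop and 25.6 to 27.0% of input libraries. Because of this difference each comparison is given as counted and after a correction for fragment length.

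The promoters show how the counted units sit on the genes, since StyI cuts at CCNNGG with A or T at either N. They run from 250 bases before to 50 after the start site, on the plus strand of GRCm38.p6 from RefSeq (Pou5f1 chr17:35505782-35506081, Sox2 chr3:34649745-34650044, a different build from the mm9 of the counts). StyI sites are in capitals.
Pou5f1: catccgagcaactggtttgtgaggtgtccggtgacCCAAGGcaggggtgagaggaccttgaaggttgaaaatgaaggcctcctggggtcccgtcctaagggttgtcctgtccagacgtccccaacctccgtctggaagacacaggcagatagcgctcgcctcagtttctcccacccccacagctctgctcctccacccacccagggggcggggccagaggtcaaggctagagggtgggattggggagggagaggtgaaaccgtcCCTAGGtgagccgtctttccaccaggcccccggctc
Sox2: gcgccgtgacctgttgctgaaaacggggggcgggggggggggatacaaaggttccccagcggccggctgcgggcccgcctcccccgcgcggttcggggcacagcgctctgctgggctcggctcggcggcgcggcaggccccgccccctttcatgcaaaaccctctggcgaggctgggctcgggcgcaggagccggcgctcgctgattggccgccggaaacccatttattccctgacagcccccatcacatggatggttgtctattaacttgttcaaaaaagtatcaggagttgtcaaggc

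The Pou5f1 promoter holds 2 StyI sites, at -215 and 15 relative to the start, and the Sox2 promoter holds 0. A StyI site occurred in 34.5% of the 32851 promoters of the table. The Pou5f1 sites lie 229 bases apart, and the only fragment of 229 bp in the files within 20 kb of the gene start (35642764 to 35642993, mm9) is therefore taken as this promoter. On either strand, the GC box GGGCGG occurs at -45 in the Pou5f1 promoter and at -223 and -111 in that of Sox2 (35.7% of all promoters hold one). The Sox core ACAAAG or ACAATG occurs at -206 in the Sox2 promoter and not in the Pou5f1 promoter shown (28.6% of promoters), and the octamer ATGCAAAT in neither (1.74%). These are matches of letters in a window of 300 bases. RefSeq lists a further Pou5f1 start, whose promoter holds ACAATG at -158 and a StyI site at -126 and is not printed.

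Both windows held more HRS than Loop or input counts, and Loop and input were close to each other. The Pou5f1 window had 124, 108 and 141 CPM (counts scaled to a library total of 1000000) in the HRS libraries, 85.4, 88.8 and 88.7 CPM in the Loop libraries, and 88.0, 79.1 and 81.6 CPM in the input libraries. Every HRS library lay above every Loop and input library. The means were 124 ± 16.5 CPM for HRS, 87.7 ± 1.92 for Loop and 82.9 ± 4.61 for input (SD, n = 3 each). HRS exceeded Loop by 0.58 ± 0.13 (SE) on the log2 scale, with an adjusted p of 0.00376 by edgeR's quasi-likelihood test over all windows of 150 kb in the genome. It was 0.75 ± 0.12 with the length correction (adjusted p = 0.00143, edgeR). Genome-wide, 23.8% of such windows were called higher in HRS at an adjusted p of 0.05 (24.5% with the correction), so the call is a common one. HRS over input gave 0.77 ± 0.13 (edgeR adjusted p = 0.000838) and 0.74 ± 0.13 with the correction, with 26.1% and 26.3% of windows called higher. Loop over input gave 0.12 ± 0.05, which was not called (edgeR adjusted p = 0.104, with 23.5% of windows called in either direction), and was -0.04 ± 0.05 with the correction. It passed the threshold without input replicate 1 (0.17, edgeR adjusted p = 0.0217).

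The Sox2 window had 143, 157 and 143 CPM in HRS, 116, 120 and 110 CPM in Loop, and 119, 118 and 114 CPM in input libraries. The groups again did not overlap between HRS and the others, while Loop and input did. The means were 147 ± 8.13 CPM for HRS, 115 ± 5.03 for Loop and 117 ± 2.56 for input (SD, n = 3 each). HRS over Loop was 0.42 ± 0.07 on the log2 scale (edgeR adjusted p = 0.00118) and 0.48 ± 0.06 with the correction (adjusted p = 0.000696). Windows of 200 kb called higher made up 23.4% of the genome (24.9% with the correction). HRS over input was 0.50 ± 0.09 (edgeR adjusted p = 0.000875) and 0.49 ± 0.08 with the correction, with 26.4% and 26.7% of windows called higher. Loop over input was 0.02 ± 0.05 (edgeR adjusted p = 0.795, with 19.1% called in either direction).

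The 2 windows differed in their surroundings. In HRS libraries the Sox2 window held more counts per kb than its flanks by 0.87, 1.01 and 1.04 on the log2 scale, against 0.18, 0.25 and 0.20 in Loop and 0.29, 0.24 and 0.27 in input libraries. HRS libraries did not overlap the others, and the mean difference was 0.76 from Loop and 0.71 from input. For the Pou5f1 window the same measure was 0.24, 0.09 and 0.14 in HRS, -0.02, 0.02 and 0.06 in Loop, and -0.02, -0.09 and -0.04 in input libraries. The differences were 0.13 from Loop and 0.20 from input, also without overlap. All 4 comparisons with HRS reached p = 0.1 in a two-sided exact permutation test over libraries (0.12 adjusted over the 6 comparisons), the smallest p that 3 against 3 allows. Loop against input at Pou5f1 reached the same p without overlap, with a difference of 0.07. With the expected count for fragment length as the divisor, the difference from Loop was 0.74 at Sox2 and 0.17 at Pou5f1. The result at Pou5f1 depends on how far the flanks reach. With flanks of 400 kb the difference turned to -0.19 from Loop and -0.06 from input, so the ratio of the Pou5f1 window over its flanks was then lower in HRS. With flanks of 100 kb it was 0.33 from Loop, and over fragments longer than 200 bp 0.03 (exact permutation p = 0.7).

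**Figure D1:**
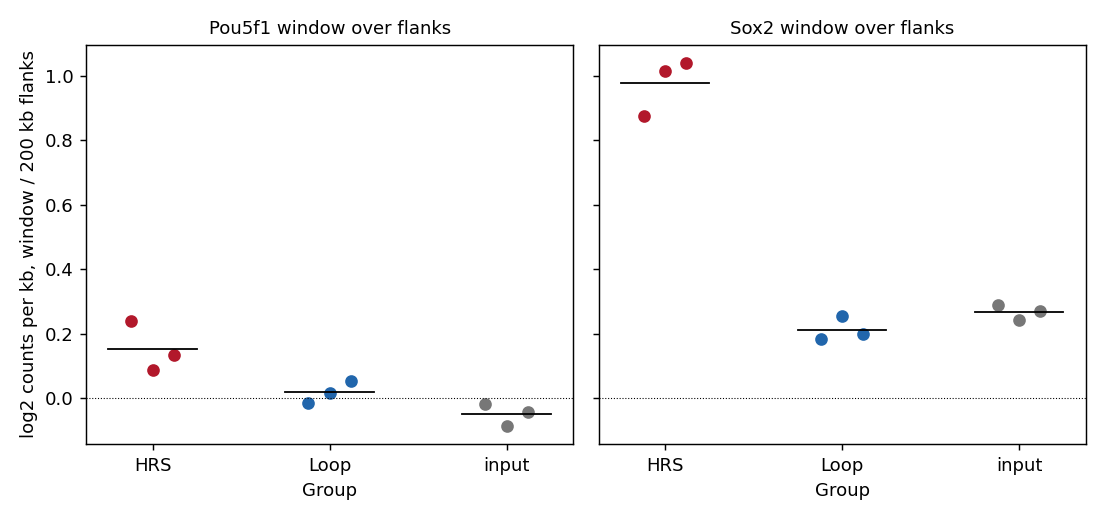
Log2 ratio of counts per kb in the window over counts per kb in the 200 kb flanks, for the Pou5f1 window (left) and the Sox2 window (right). Each point is 1 library, and the horizontal line is the mean of 3. At Sox2 the HRS libraries lie between 0.87 and 1.04 and the Loop and input libraries between 0.18 and 0.29, whereas at Pou5f1 all 9 libraries lie between -0.09 and 0.24.

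The flanks showed this contrast directly. Around Sox2, HRS had fewer counts than Loop or input in both flanks. The HRS libraries held 156, 155 and 139 CPM in the flanks together, against 204, 201 and 192 CPM in Loop and 195, 200 and 189 CPM in input libraries. Of the 20 bins of 10 kb in the left flank, 4 were called lower in HRS than in Loop, and of the 20 in the right flank 13 were (5 and 6 with the length correction). Over all bins 20.4% were called lower (8.43% with the correction), so the uncorrected count in the left flank is at the share of all bins. The number called higher was 0 in each flank by edgeR and by DESeq2, and also 0 at an unadjusted p under 0.05. Around Pou5f1 the flanks were themselves higher in HRS, with 280, 271 and 342 CPM against 230, 234 and 228 CPM in Loop and 237, 224 and 224 CPM in input libraries. In the Pou5f1 flanks 8 of 19 tested bins on the left and 5 of 20 on the right were called higher in HRS than in Loop (8 and 9 with the correction), against 17.8% and 15% of all bins. The bin with the largest ratio in the region lay in the left flank (35380001 to 35390000), 258 kb from the gene start. It had 16.3, 16.1 and 22.4 CPM in HRS libraries against 5.60, 4.99 and 5.33 CPM in Loop libraries (log2 1.77 ± 0.18, edgeR adjusted p = 4.88e-07, and 2.04 with the correction). This bin was singled out after its values were seen.

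Within the Pou5f1 window the bins higher in HRS lay mostly around the gene. The 2 sides were not measured alike. Before 35620001, 67 of 91 fragments had no count in any library, against 7 of 121 after it, so fewer calls could arise there. Of 15 bins 14 were tested, and 6 were called higher and 1 lower in HRS than in Loop (8 and 2 in the paired fit), where 17.8% and 20.4% of all bins were called. With the length correction 6 were higher (15% of all bins), and 0 were lower by edgeR (8.43% of all bins), also at an unadjusted p under 0.05; DESeq2, run without the correction, called 1 lower. The median log2 ratio of the 14 bins was 0.38 (0.53 with the correction), against a median of 0.01 (-0.03) over all bins. The 6 length-corrected bins formed 1 run of 60 kb, from 35620001 to 35680000, which holds the gene and had a mean log2 ratio of 0.98. Such a run was not particular to the gene. In the left flank a corrected run of the same length (35350001 to 35410000) had a mean of 1.11. As counted, runs of 40 kb had means of 0.97 at the gene and 1.40 in the left flank. Against input, 7 bins of the window were higher (8 with the correction), where 15.2% (15.5%) of bins were, and 0 were lower by edgeR or DESeq2, also at an unadjusted p under 0.05, where 9.16% (9.72%) were. Without input replicate 2 the corrected count was 5.

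The bin that holds Pou5f1 (35640001 to 35650000, 21 fragments) had the most counts of the window in the HRS libraries on average. It had 24.8, 20.0 and 26.2 CPM in HRS libraries, 13.8, 14.5 and 16.1 CPM in Loop libraries and 12.4, 10.8 and 12.3 CPM in input libraries. The HRS libraries lay above all others, and every Loop library lay above every input library. HRS over Loop was 0.66 ± 0.18 on the log2 scale (edgeR adjusted p = 0.00736). This call was lost without Loop replicate 1 (0.59, adjusted p = 0.056) or Loop replicate 2 (0.64, adjusted p = 0.057), and was kept with every library left out once fragment length was corrected for (1.06 ± 0.14, edgeR adjusted p = 7.84e-05). HRS over input was 1.14 ± 0.18 (edgeR adjusted p = 0.000133). Loop over input was 0.46 as counted (edgeR adjusted p = 0.00223) and 0.00 with the correction (edgeR adjusted p = 0.993).

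Bins on either side of the gene had ratios as large or larger. The bin before it (35630001 to 35640000) had 8.35, 8.54 and 10.1 CPM in HRS against 3.82, 3.51 and 3.64 CPM in Loop libraries, a log2 ratio of 1.28 ± 0.15 (edgeR adjusted p = 1.73e-06; 1.27 with the correction). The bin after it (35650001 to 35660000) had 20.5, 17.7 and 27.8 CPM in HRS against 10.7, 12.1 and 11.3 CPM in Loop libraries, a ratio of 0.94 ± 0.20 (edgeR adjusted p = 0.000749) and of 1.37 ± 0.17 with the correction, the largest of the window by that measure. Of the other called bins, 35660001 had a ratio of 0.99. The bins 35560001 (1.11) and 35610001 (0.98) were no longer called after the correction and had at most 2.38 CPM in any library, and 35610001 also lost its call without HRS replicate 2, Loop replicate 2 or Loop replicate 3. The bin called lower, 35550001, had 3.24, 2.88 and 3.43 CPM in HRS against 4.64, 5.48 and 3.93 CPM in Loop libraries (-0.58). With the correction its ratio was 0.35, which was not called, and as counted its call was lost without Loop replicate 2.

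**Figure D2:**
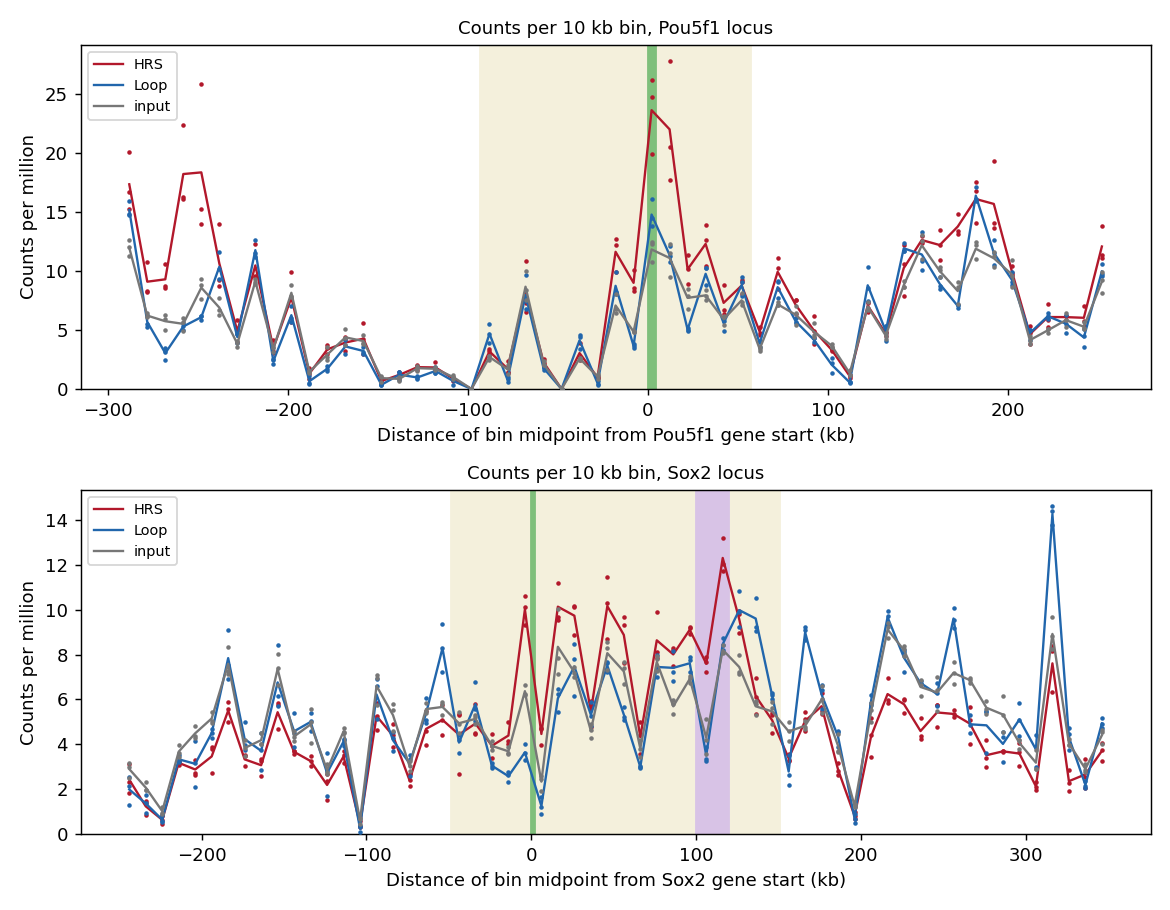
CPM in bins of 10 kb at the Pou5f1 locus (top) and the Sox2 locus (bottom), against the distance of the bin midpoint from the gene start in kb. Points are libraries and lines are means of 3 (HRS red, Loop blue, input grey); the pale area is the window, green the gene and violet the distal zone 100 to 120 kb downstream of Sox2. The Pou5f1 gene bin has 20.0 to 26.2 CPM in HRS and at most 16.1 CPM in the other libraries, and around Sox2 HRS is above Loop and input at the gene and the distal zone and mostly below them in the flanks.

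To set bins of different fragment length side by side, counts were divided by the count expected from fragment length, taken from the 9 libraries together. A value of 1 means the share of the pool, so an excess in HRS lowers the values of Loop and input by construction. The Pou5f1 gene bin had values of 1.63, 1.33 and 1.66 in HRS libraries, 0.78, 0.82 and 0.81 in Loop libraries and 0.84, 0.73 and 0.85 in input libraries. The rest of the window had 1.27, 1.12 and 1.46 in HRS, 0.87, 0.89 and 0.88 in Loop, and 0.97, 0.87 and 0.89 in input libraries. The gene bin exceeded the rest of the window by 0.27 ± 0.09 in HRS and by -0.13 ± 0.02 in Loop libraries on the log2 scale (SD, n = 3 each), a difference of 0.40 without overlap of the libraries. The exact permutation p was 0.1, the smallest possible, and 0.133 adjusted over the 12 comparisons of this kind, which were added after the values were seen.

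**Figure D3:**
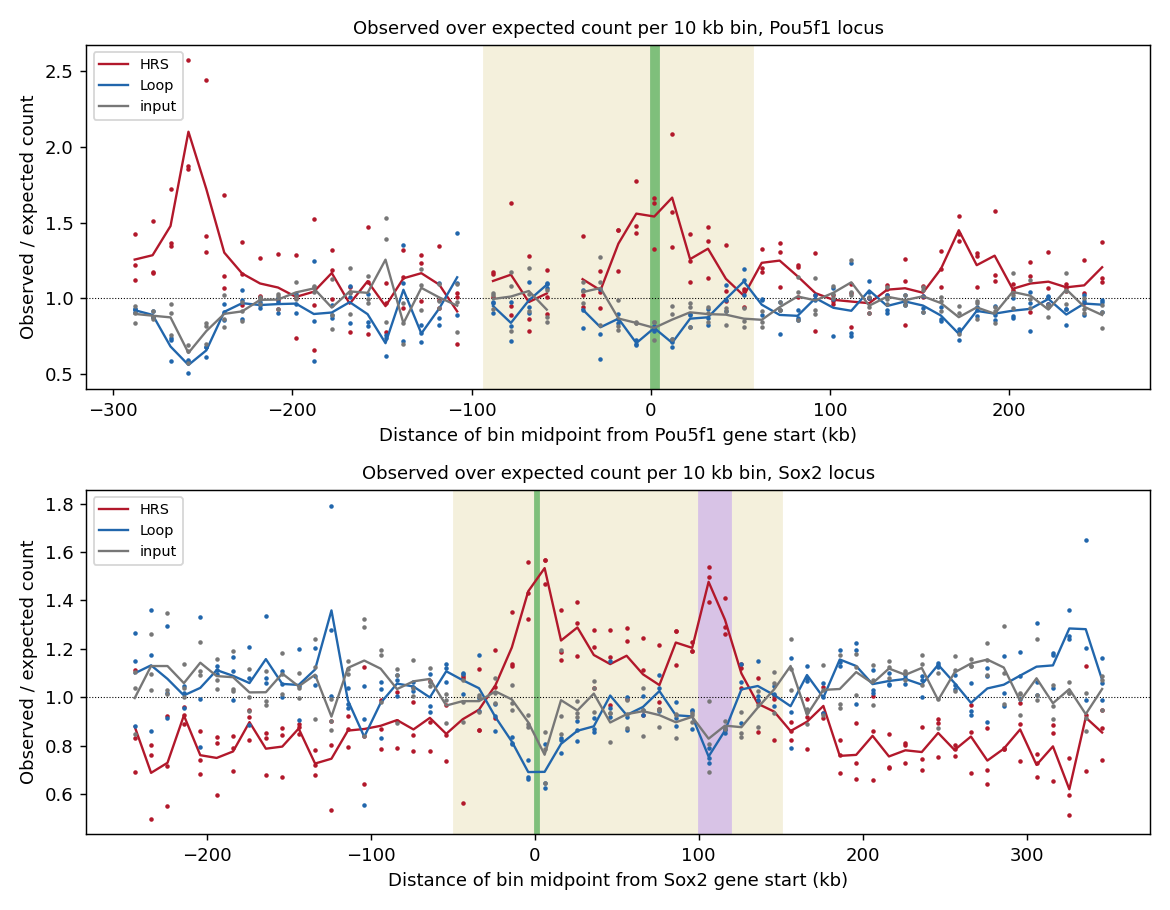
Observed over expected count per 10 kb bin at the Pou5f1 locus (top) and the Sox2 locus (bottom), against distance from the gene start in kb, with the colours of the plot of counts per bin; the dotted line is the pool of the 9 libraries. At Pou5f1 the HRS means are 1.56, 1.54 and 1.67 in the bin before the gene, the gene bin and the bin after it. They are higher in the left flank, with 2.10 at -258 kb and 1.72 at -248 kb. Around Sox2, HRS is highest at the gene and its distal zone, with means of 1.53 in the bin after the Sox2 start and 1.48 in the first bin of the distal zone.

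The Sox2 window showed an HRS excess at the gene and another at the distal zone, over a raised interval between them. All 20 bins were tested. Between HRS and Loop 9 were called higher and 1 lower (17.8% and 20.4% of all bins), and with the correction 11 were higher and 0 lower (15% and 8.43% of all bins), also at an unadjusted p under 0.05 (1 lower by DESeq2, uncorrected). The median log2 ratio was 0.35 (0.49 with the correction). The corrected bins formed runs of 60 kb (34530001 to 34590000, mean 0.85) and 40 kb (34630001 to 34670000, mean 0.71), with 1 further bin between them (34600001, 0.46). Against input 12 bins were called higher as counted and with the correction (15.2% and 15.5% of all bins), and 0 lower by edgeR or DESeq2, also at an unadjusted p under 0.05 (9.16% and 9.72% of all bins were lower). Without input replicate 3 the number was 7 in either fit.

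The gene bins had the largest ratios of the window. The bin 34540001 to 34550000, which holds the start of Sox2, had 10.1, 9.32 and 10.6 CPM in HRS, 4.04, 3.29 and 3.61 CPM in Loop, and 6.24, 6.20 and 6.67 CPM in input libraries. The 3 groups did not overlap. HRS over Loop was 1.44 ± 0.14 (edgeR adjusted p = 3.68e-07; 1.18 with the correction) and HRS over input 0.79 ± 0.13 (edgeR adjusted p = 0.000288). The next bin (34550001 to 34560000) had 4.68, 4.75 and 3.97 CPM in HRS, 1.65, 1.22 and 0.90 CPM in Loop, and 1.93, 2.62 and 2.48 CPM in input libraries. Its ratio was 1.801 ± 0.19 over Loop (edgeR adjusted p = 6.90e-07; 1.26 with the correction) and 1.07 ± 0.14 over input (edgeR adjusted p = 2.60e-05). These bins hold long fragments, with a median of 1386 bp against 539 bp for all fragments, and 1 of their 13 fragments is of up to 200 bp. Loop over input was -0.67 and -0.76 in them as counted, both called, and -0.37 and -0.12 with the correction, neither called.

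In the distal zone, the bin 34650001 to 34660000 had 7.90, 7.66 and 7.22 CPM in HRS, 3.37, 3.24 and 3.90 CPM in Loop, and 5.15, 4.19 and 3.57 CPM in input libraries. HRS again lay above both other groups, which overlapped. Its log2 ratio was 1.09 ± 0.14 over Loop (edgeR adjusted p = 5.70e-06), 1.09 with the correction, and 0.95 ± 0.14 over input (edgeR adjusted p = 7.66e-05). The bin 34660001 to 34670000 had 12.03, 13.2 and 11.7 CPM in HRS, 8.43, 8.74 and 8.22 CPM in Loop, and 8.43, 8.08 and 8.13 CPM in input libraries, with a ratio of 0.52 ± 0.14 over Loop (edgeR adjusted p = 0.00759; 0.74 with the correction). Beyond the zone, the bin 34680001 was called lower in HRS than in Loop (-0.67), and its ratio was 0.02 with the correction. The other called bins with the largest ratios over Loop were 34530001 (0.74), 34560001 (0.72) and 34600001 (0.71).

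The observed over expected values separate the gene, the zone and the interval between them. HRS libraries had 1.47, 1.40 and 1.53 in the gene bins, 1.38, 1.44 and 1.31 in the distal zone and 1.11, 1.25 and 1.17 in the bins between. Loop libraries had 0.76, 0.66 and 0.65 in the gene bins, 0.81, 0.83 and 0.84 in the distal zone and 0.91, 0.94 and 0.90 in the bins between. In HRS the gene and the zone were thus above the interval between them in every library, and in Loop they were below it in every library. The pool holds the HRS libraries, so an excess in HRS lowers the Loop and input values there by construction. The Loop values alone are therefore not a separate sign of loss. Input also lay below the interval in every library. For the distal zone over the bins between, Loop and input overlapped (exact permutation p = 0.6). The gene bins over the bins between averaged 0.32 ± 0.14 in HRS, -0.41 ± 0.12 in Loop and -0.13 ± 0.09 in input libraries on the log2 scale (SD, n = 3 each). The distal zone over the bins between averaged 0.22 ± 0.08 in HRS, -0.15 ± 0.05 in Loop and -0.12 ± 0.08 in input libraries. The bins between over the flanks averaged 0.52 ± 0.13 in HRS, -0.23 ± 0.04 in Loop and -0.18 ± 0.01 in input libraries. Each of these HRS values differed from Loop and from input without overlap, at an exact permutation p of 0.1 (0.133 adjusted over the 12 comparisons). The gene bins over the bins between also differed between Loop and input without overlap, by -0.28 at the same p.

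Loop and input differed at both loci as counted, and few bins differed once fragment length was corrected for. At Pou5f1 6 bins were called higher and 3 lower in Loop than in input, and at Sox2 7 and 5, where 21.5% and 18% of all bins were. With the correction 0 bins were called in either window by edgeR (0.266% and 0.0782% of all bins were higher and lower). At an unadjusted p under 0.05 1 corrected bin was higher and 2 were lower at Pou5f1, and 1 and 3 at Sox2. DESeq2, without the correction, called 6 higher and 3 lower at Pou5f1, and 6 and 3 at Sox2.

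Single fragments showed the same excess at finer scale. At Pou5f1 123 of the 212 fragments passed the filter on low counts for HRS against Loop, and 37 were called higher and 7 lower in HRS (7.78% and 15% of all tested fragments). With the length correction 31 were higher and 2 lower (4.29% and 1.36%). At Sox2 209 of 259 were tested, with 33 higher and 20 lower, or 17 and 3 with the correction. Without Loop replicate 1 the numbers called higher were 23 at Pou5f1 and 20 at Sox2, and the numbers called lower were as low as 2 at Pou5f1 (without Loop replicate 2) and 10 at Sox2 (without HRS replicate 1). The 7 and 20 fragments called lower as counted were all of up to 200 bp. At Sox2 those with the largest ratios were 34596198, 34623178, 34627449, 34686078 and 34695790. With the correction only 34627449 of these kept its call (-0.83, edgeR adjusted p = 0.0375). As counted, the call of 34596198 was lost without HRS replicate 1, HRS replicate 3, Loop replicate 1 or Loop replicate 2. That of 34623178 was lost without Loop replicate 2. Against input 33 of 123 tested fragments at Pou5f1 were higher and 0 lower by edgeR (3 lower at an unadjusted p under 0.05), and 16 of 217 at Sox2 were higher and 1 lower, where 4.57% and 1.74% of fragments were (4.5% and 1.47% with the correction). These counts against input fell when any 1 input library was left out, to between 8 and 15 at Pou5f1 and between 3 and 6 at Sox2.

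**Figure D4:**
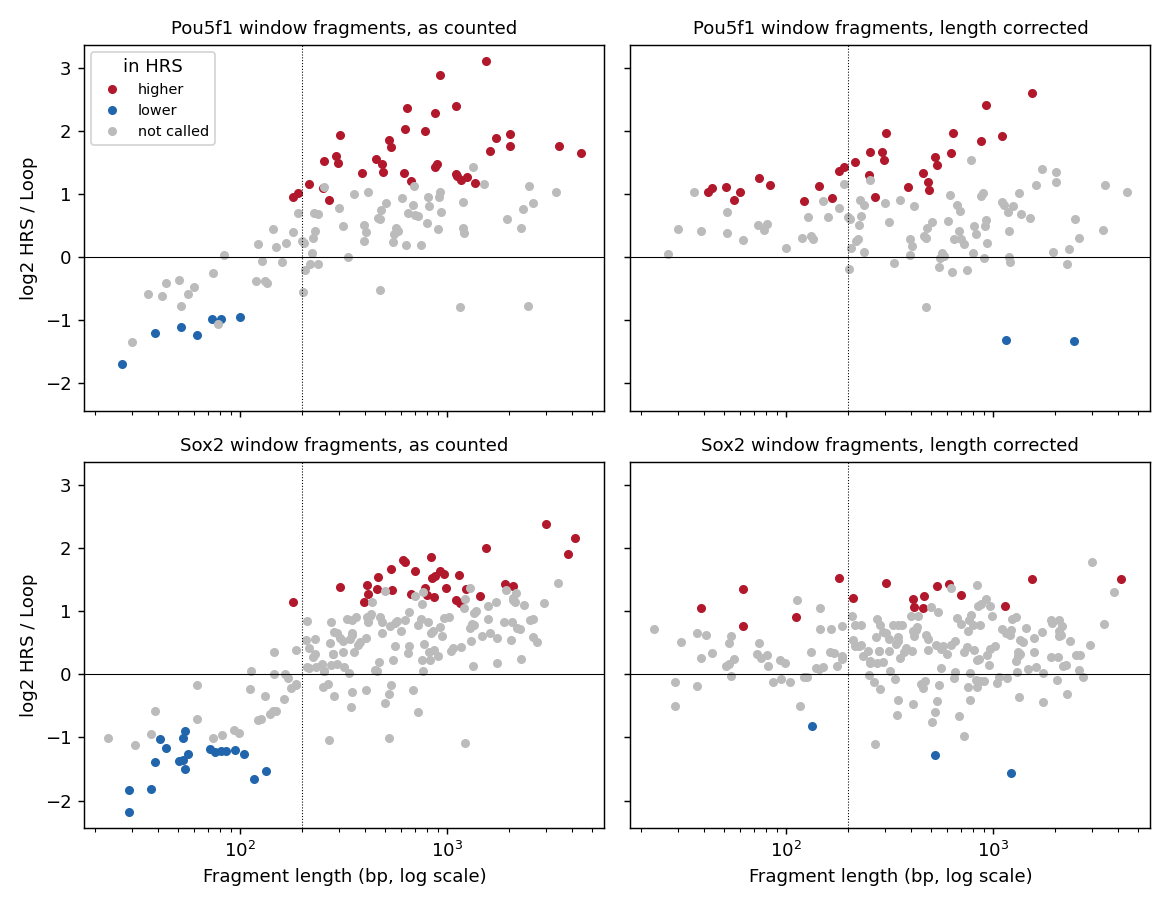
Log2 ratio of HRS over Loop for each tested StyI fragment of the Pou5f1 window (top) and the Sox2 window (bottom) against its length in bp on a log scale, as counted (left) and with the length correction (right). Red fragments were called higher and blue ones lower in HRS, grey ones were not called, and the dotted line marks 200 bp. As counted, every fragment called lower lies left of that line, and with the correction most fragments of both windows lie above 0, with medians of 0.64 at Pou5f1 and 0.39 at Sox2.

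Sox2 itself is covered by 2 StyI fragments, and both were called higher in HRS than in Loop, where 7.78% of all tested fragments were. The fragment 34548528 to 34550061 (1533 bp) had 81, 110 and 61 counts in HRS, 27, 30 and 12 in Loop, and 48, 54 and 60 in input libraries. HRS lay above every other library, and Loop lay below input. The log2 ratio was 2.01 ± 0.37 over Loop (edgeR adjusted p = 2.92e-05; 1.51 with the correction) and 1.00 over input (edgeR adjusted p = 0.0207), and the call over input was lost without HRS replicate 2 or any input library. The fragment 34550061 to 34554184 (4123 bp) had 66, 95 and 37 counts in HRS, 17, 21 and 10 in Loop, and 34, 60 and 37 in input libraries, with a ratio of 2.15 ± 0.39 over Loop (edgeR adjusted p = 3.05e-05; 1.51 with the correction). Its HRS and input counts overlapped, and as counted that ratio was not called (0.94, edgeR adjusted p = 0.0503). It was called when HRS replicate 3 was left out (1.11, edgeR adjusted p = 0.00254). With the length correction both gene fragments were called higher than input, at log2 ratios of 0.96 and 1.10, where 4.5% of all tested fragments were. Among the fragments called higher than input in the window, the one with the largest ratio lies just before the gene (34548043 to 34548224, 181 bp). It had 164, 152 and 170 counts in HRS, 70, 70 and 105 in Loop, and 77, 86 and 61 in input libraries (log2 1.54 over input, edgeR adjusted p = 0.000792, and 1.15 over Loop). In the distal zone the fragment 34660258 to 34660956 had 68, 77 and 61 counts in HRS, 33, 33 and 9 in Loop, and 44, 29 and 41 in input libraries (log2 1.63 ± 0.38 over Loop, edgeR adjusted p = 0.000714).

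Pou5f1 is cut into 13 fragments, of which 11 were tested. Of these 4 were called higher in HRS than in Loop, or 5 with the correction, and none was called lower by edgeR. Over all tested fragments 7.78% were higher and 15% lower, or 4.29% and 1.36% with the correction. At shares this low, none lower among 11 says little. The fragment 35642993 was called lower without HRS replicate 3 (-1.17, edgeR adjusted p = 0.00879) or Loop replicate 1 (-0.95, edgeR adjusted p = 0.0454), and 35644300 was called higher without HRS replicate 2 or Loop replicate 2. All 11 ratios were above 0 once corrected, from 0.31 to 1.67. The fragment 35644049 to 35644300 had 82, 57 and 74 counts in HRS, 30, 25 and 56 in Loop, and 36, 26 and 19 in input libraries (log2 1.09 ± 0.36 over Loop, edgeR adjusted p = 0.0196, and 1.81 over input, edgeR adjusted p = 0.000367). Its HRS counts lay above all others, and its call over Loop was lost without HRS replicate 1, HRS replicate 3, Loop replicate 1 or Loop replicate 2. The fragment 35646120 to 35646746 had 43, 48 and 31 counts in HRS, 15, 11 and 7 in Loop, and 53, 27 and 30 in input libraries, so that HRS exceeded Loop (2.03 ± 0.43, edgeR adjusted p = 0.000246) and overlapped input. The other called ones were 35645628 (1.61, a call lost without HRS replicate 1 or Loop replicate 2) and 35646746 (1.48).

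The promoter fragment of Pou5f1, named for the sequence above and not by its values, had 106, 67 and 97 counts in HRS, 61, 41 and 123 in Loop, and 64, 51 and 41 in input libraries. HRS and Loop overlapped and the ratio of 0.42 ± 0.34 was not called (edgeR adjusted p = 0.428). HRS lay above input in every library, with a log2 ratio of 1.22 (edgeR adjusted p = 0.00863). For this fragment the ratios with the length correction or with a library left out are not given here. Calls over input in this window became fewer when any 1 input library was left out, so this call may depend on a single library. The Sox2 promoter has no site of its own and lies in the fragment 34548528 if the start is where the gene coordinates put it.

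The 5 fragments with the largest ratios at Pou5f1 all lay past the gene, and 4 of them had midpoints from 7926 to 11202 bp from its start. The fragment 35650158 to 35651695 had 46, 34 and 18 counts in HRS, 3, 6 and 3 in Loop, and 22, 12 and 16 in input libraries (log2 3.10 ± 0.54 over Loop, edgeR adjusted p = 1.35e-05, and 2.60 with the correction). Its Loop counts were under the minimum count of 10 of the filter, which it therefore passed only through HRS. The size of its ratio rests on these few Loop counts. The fragment 35653739 to 35654665 had 141, 151 and 256 counts in HRS, 35, 34 and 19 in Loop, and 94, 111 and 57 in input libraries (2.88 ± 0.36, edgeR adjusted p = 3.19e-08; 2.42 with the correction). In both, HRS counts lay above input counts and input counts above Loop counts, apart from 1 overlap between HRS and input in the first. That overlap is of unscaled counts, 18 in HRS replicate 3 and 22 in input replicate 1. These libraries summed to 39.1 and 62.2 M counts. The fragments 35651883 (2.36) and 35652866 (2.28) lie between them, and 35670655 (2.39) lies farther on. At Sox2 the other fragments among the 5 largest were 34556823 (2.38, with at most 21 counts in any library), 34544200 (1.90) and 34564070 (1.86). As counted, the call of 34556823 was lost without HRS replicate 1 or Loop replicate 1, and that of 34564070 without HRS replicate 2 or Loop replicate 1. With the length correction none of 34556823, 34544200 and 34564070 was called, whereas both gene fragments were.

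Part of the Pou5f1 window could not be measured. Of its 212 fragments 74 had no count in any of the 9 libraries (34.9%), against 14 of 259 at Sox2 (5.41%) and 16.4% of all fragments. At Pou5f1 67 of them lie before 35620001, the side of the H2-Q genes, where they are 67 of 91 fragments, and 7 of 121 lie after it. The bin 35590001 to 35600000 had 0 counts in every library and was not tested. A count of 0 allows up to 3 counts, or 0.0477 to 0.0768 CPM in a library, and covers counting error only. The labels do not say what was done with tags matching several places.

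The 2 windows were also set against each other. The log2 ratio of counts in the Pou5f1 window over the Sox2 window was -0.20, -0.54 and -0.01 in HRS, -0.44, -0.43 and -0.31 in Loop, and -0.43, -0.58 and -0.48 in input libraries. HRS overlapped both other groups, and the HRS libraries were the more scattered (SD 0.26, against 0.07 in Loop). The differences were 0.14 from Loop (exact permutation p = 0.4) and 0.25 from input (exact permutation p = 0.3), which at n = 3 a group does not show the loci to be alike.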

How the data were processed

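The deposited values are whole-number counts per StyI fragment in 9 libraries, made by the authors from short tags read at fragment ends, per the labels' protocols. CASAVA 1.8.2 and mm9 are named in the submitters' processing notes; the aligner is not given in the sources used here. Windows, tests and lists were chosen with earlier results of these data known. Fragments were summed by midpoint into 10 kb bins and into windows of 150 and 200 kb tiled over the genome. Groups were compared with edgeR 4.0.16 in R 4.3.3 (glmQLFit, glmQLFTest, TMM, filterByExpr with a minimum count of 10), with Benjamini-Hochberg adjustment over all features at 0.05. SE is the log2 ratio over the square root of F. The length correction used 20 length classes: a fragment's pooled count times the library's share of its class gave the expected count, entered as an offset. CPM is the count scaled to a library total of 1000000. Ratios between regions were compared over libraries by exact permutation.

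Chosen for naming were the bins on the genes and in the distal zone, and all fragments on the genes. So were up to 5 called bins and fragments with the largest ratios per direction in each window. Not all of them are named above. The largest called bins of Loop against input are summarised as counts. So are part of the bins and fragments of HRS against input and part of the fragments on Pou5f1. Same-numbered HRS and Loop libraries deviated together (correlations 0.158, 0.111 and 0.232), each over 0.1, so the numbers were taken to pair them; HRS replicate 2 and Loop replicate 1 correlated at 0.124. The fits given hold no pairing term. Repeat tables, and other pluripotency genes, for which no mm9 annotation was at hand, were not analysed here. The fits were also run on simulated counts, with the same dispersion for all features and libraries drawn independently. For the length correction the simulated means were the expected counts themselves. This run therefore cannot check the correction or the spread between libraries seen here. Alternatives included DESeq2 1.42.0, other scalings, fragments over 200 bp and each library left out.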

Additional observations from a re-analysis of the deposited data

How the results depend on the processing

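HRS against Loop and against input kept their direction and call in both windows. At Pou5f1 the ratio lay between 0.42 and 0.75 over 16 alternatives against Loop (largest edgeR or DESeq2 adjusted p = 0.0194) and between 0.58 and 0.88 over 13 against input (0.00546). At Sox2 it lay between 0.35 and 0.48 over 16 (0.0102) and between 0.33 and 0.54 over 13 (0.0135). The fit with the replicate block gave 0.56 at Pou5f1 (edgeR adjusted p = 0.000155) and 0.42 at Sox2 (edgeR adjusted p = 0.000257). Pairing moved the Pou5f1 bins lower in HRS than in Loop to 2 (0 with the length correction as well, and 2 without both replicate 3 libraries), and those at Sox2 to 0 with the correction. Bins higher in HRS than in Loop numbered 8 at Pou5f1 and 10 at Sox2 with the block. The block alone changed no call of a window or of a bin named in the text, and single fragments were not refitted with it. Its correction turned 35550001 to 0.35 and 34680001 to 0.0197 (0.0192 with the correction alone). In what follows, counts are of bins of 10 kb unless stated, and the cause of each change was not tested.

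With the length correction, bins lower in HRS than in Loop fell to 0 at both loci. Fragments lower fell to 2 at Pou5f1 and 3 at Sox2, and fragments higher at Sox2 to 17. Loop over input turned to -0.0400 at Pou5f1 and -0.0091 at Sox2, bins higher or lower in Loop to 0 in each window, and Pou5f1 over Sox2 in Loop against input to -0.0292. Signs turned for HRS over Loop in bin 35550001 (0.35) and, among fragments, 35557326 (0.27), 35574487 (0.41), 35607469 (0.38), 35642993 (0.71), 35645919 (1.25), 35645993 (0.63), 35671758 (0.50) and 35691723 (0.0443). For Loop over input they turned in bins 35550001 (-0.0599), 35600001 (-0.16), 35670001 (-0.0282), 34580001 (-0.20), 34660001 (-0.0280) and 34690001 (-0.0265).

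Over fragments longer than 200 bp, bins lower in HRS than in Loop were 0 at each locus. Bins higher in Loop than in input were 0 at each, and bins lower 1 at Pou5f1 and 0 at Sox2. The Sox2 window gave -0.0181 for Loop over input, and -0.0229 when scaled by library totals. Bin 35550001 turned to 0.71 (HRS over Loop) and -0.53 (Loop over input). For Loop over input 35660001 turned to 0.0562, 35670001 to -0.0558, 34580001 to -0.21, 34600001 to 0.24, 34630001 to -0.0668, 34650001 to 0.105 and 34660001 to -0.0140.

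With bins of 50 kb, 2 at Pou5f1 and 3 at Sox2 were higher and 0 lower in HRS than in Loop. Against input 2 and 4 were higher in HRS, and for Loop 1 was higher at each and 0 (Pou5f1) and 1 (Sox2) lower. At an adjusted p of 0.01, 7 Sox2 bins were higher in HRS and 3 higher and 2 lower in Loop than in input. With library totals 3 were higher, and 3 were lower with DESeq2 or with all 9 libraries in the fit. Flanks of 400 kb turned the window over flanks to -0.19 (HRS against Loop) and -0.0568 (HRS against input) at Pou5f1, and moved Loop against input at Sox2 to 0.0095.

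With each library left out, Pou5f1 had 0 to 2 bins lower in HRS than in Loop, 23 to 30 fragments higher and 2 to 9 lower. Against input it had 5 to 8 length-corrected bins and 8 to 38 fragments higher in HRS. Its Loop over input ratio was 0.0889 to 0.17 (-0.0782 to 0.0158 corrected, with 0 to 1 bins higher). Sox2 had 20 to 31 fragments higher and 10 to 22 lower in HRS than in Loop. Against input it had 7 to 15 bins higher in either fit, and 3 to 24 fragments higher and 0 to 1 lower. Its Loop over input ratio was -0.0076 to 0.0372 (-0.0316 to 0.0121 corrected), with 3 to 7 bins higher and 2 to 4 lower. Fragment 35645993 lay between -0.29 and 0.20 over Loop, and over input 35643157 between -0.11 and 0.26 and 35646746 between -0.0865 and 0.46. Leaving out a library with the correction kept, and comparing zones within the Sox2 window, were chosen after seeing the data. Depth limits single fragments: over all members of both windows the median was 10 to 25 counts per fragment in a library.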
